A study of Mus musculus with 8 samples.

Results

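The pigment-cell genes Tyr, Tyrp1, Dct, Pmel, Mlana, Mitf, Slc45a2, Oca2 and Mc1r were examined in forepaw skin. They were meant as a measure of melanocytes and of pigmented, growing hair follicles. Whether they measure follicles in palm skin was not tested. The genes were chosen by name, as every non-control probe whose gene name in the scanner files was one of these 9. All 9 genes were on the array, with 12 probes of 39429. C57BL/6J wild-type (WT) mice and Adcyap1r1 -/- mice, which lack the PACAP receptor PAC1R (PAC1R KO), were 9 to 10 weeks old and received 5 µL of PACAP at 1e-07 mol/L or of vehicle (saline with 0.1% BSA) intradermally into the footpad. Palm skin was sampled 30 or 60 min later, with 6 mice per genotype in the study. The labels name no tissue-restricted deletion, and which mice entered each RNA sample, alone or pooled, was not given in the sources used here.

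The 8 RNA samples, 1 for each genotype, time and injection, were hybridised as 4 pairs of PACAP against vehicle, each pair on 2 arrays with the Cy3 and Cy5 dyes swapped. The arrays of a pair were counted as 1 replicate, which leaves each comparison without animal replicates. WT skin was hybridised on 1 slide and PAC1R KO skin on another, and the slide cannot be told apart from the genotype. Precision is limited by how few arrays there are. In red (Cy5), the share of spots well above background was 78.6% to 94.5%, and in green (Cy3) it was at most 65.3%. The log2 level of Adcyap1r1 itself was 8.28 and 8.26 at 30 min and 8.67 and 8.76 at 60 min in WT skin after vehicle and PACAP. In PAC1R KO skin it was 7.98 and 7.91 at 30 min and 8.56 and 8.42 at 60 min. Within each time both PAC1R KO samples lay below both WT samples, while over the times the genotypes overlapped. Whether this probe lies in the deleted part of the gene was not given in the sources used here.

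Melanocytes make the pigment melanin in organelles called melanosomes and pass it to keratinocytes. In mouse skin the pigment cells of hairy skin sit mainly in the hair follicle, where they make pigment only while the follicle grows. The transcription factor MITF controls the pigment genes. Tyrosinase (Tyr), tyrosinase-related protein 1 (Tyrp1) and dopachrome tautomerase (Dct) are the enzymes of melanin synthesis. Pmel forms the fibrils on which melanin is laid down, and Mlana is a melanosome protein. Slc45a2 and Oca2 are membrane proteins of the melanosome, and Mc1r is the receptor for melanocyte-stimulating hormone, which acts through cAMP. PAC1R, the receptor deleted here, is also coupled to cAMP.

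The promoters of the enzymes are shown because these genes share the element that MITF binds, called the M-box. RefSeq windows of 300 bases (GRCm38.p6, 250 before and 50 after the gene start) were found for 6 of the 9 genes, and Pmel, Mlana and Slc45a2 were without an entry. The windows were searched on both strands. The 9 letters GTCATGTGC, which include the shorter M-box core CATGTG, are in capitals in Tyr (chr7:87493463-87493762, minus strand), Tyrp1 (chr4:80833963-80834262, plus strand) and Dct (chr14:118052197-118052496, minus strand). They begin 23 bases before the gene start in Tyr, 48 in Tyrp1 and 152 in Dct.
Tyr: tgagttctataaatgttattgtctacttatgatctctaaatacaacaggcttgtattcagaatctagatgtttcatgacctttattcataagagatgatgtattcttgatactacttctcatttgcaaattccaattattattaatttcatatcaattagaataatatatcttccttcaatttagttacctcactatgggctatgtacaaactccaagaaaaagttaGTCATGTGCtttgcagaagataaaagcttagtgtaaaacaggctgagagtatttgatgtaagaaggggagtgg
Tyrp1: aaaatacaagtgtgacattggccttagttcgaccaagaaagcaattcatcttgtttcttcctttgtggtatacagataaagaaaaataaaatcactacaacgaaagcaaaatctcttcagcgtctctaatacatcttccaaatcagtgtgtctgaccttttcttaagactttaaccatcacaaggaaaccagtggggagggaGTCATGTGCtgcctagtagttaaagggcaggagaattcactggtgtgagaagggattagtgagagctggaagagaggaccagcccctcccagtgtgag
Dct: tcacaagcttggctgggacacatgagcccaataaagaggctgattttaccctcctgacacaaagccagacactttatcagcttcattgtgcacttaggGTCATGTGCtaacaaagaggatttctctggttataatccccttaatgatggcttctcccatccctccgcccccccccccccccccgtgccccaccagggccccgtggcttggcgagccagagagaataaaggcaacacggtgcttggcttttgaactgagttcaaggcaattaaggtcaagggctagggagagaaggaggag

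Of all 32851 windows in the table, 0.289% held these 9 letters and 14.2% held the core. Oca2 held the core 1 time and Mc1r 2 times, both without the longer form. Mitf has 3 windows, and none of them held the core. The third of them (chr6:97991533-97991832, plus strand) is the most downstream, where the melanocyte form of Mitf is known to start, and is shown because it holds a cAMP response element, TGACGTCA, in capitals, beginning 153 bases before the start. Of all windows, 1.79% held that element. These matches describe the sequence only.
Mitf: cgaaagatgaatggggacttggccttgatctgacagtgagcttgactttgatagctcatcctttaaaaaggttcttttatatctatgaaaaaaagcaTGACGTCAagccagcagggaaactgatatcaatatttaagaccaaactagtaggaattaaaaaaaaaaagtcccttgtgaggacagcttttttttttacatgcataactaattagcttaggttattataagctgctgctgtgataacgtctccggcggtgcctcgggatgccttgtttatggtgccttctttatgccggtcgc

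Of the 9 genes, 6 were measured, meaning that a probe was well above background on both arrays of at least 1 RNA sample. They were Tyr, Tyrp1, Dct, Pmel, Mlana and Mitf, each well above background in all 8 RNA samples. For Slc45a2 and Oca2 the probe was well above background in red on 8 arrays and in green on 0. For Mc1r it was so in red on 7 arrays and in green on 0. Their PACAP over vehicle ratios had opposite signs on the dye-swapped arrays in all 4 comparisons for Slc45a2 and Oca2 and in 3 for Mc1r. At 60 min in PAC1R KO skin, for example, Mc1r was 3.42-fold with PACAP in red and 0.512-fold with PACAP in green. No direction is therefore given for these 3 genes, which lay at log2 levels from 5.96 to 6.25 in all samples.

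The probes have the following positions on mm9, as given in the scanner files. Tyr was measured by a probe for transcript NM_001317397 on chromosome 7 (94632414 to 94632473). A second Tyr probe, for NM_011661, lies at 94576265 to 94576324 and was not well above background on any array, although it was printed on 10 spots. The values of Tyr therefore rest on the former. Tyrp1 was read on chromosome 4 (80497524 to 80497583) and Mlana on chromosome 19 (29782737 to 29782796). Dct had a pair of overlapping probes on chromosome 14 (118412029 to 118412088 and 118412013 to 118412072). The Pmel probe covers 958 bp of chromosome 10 (128156029 to 128156986), so that probe is split over more than 1 exon. The Mitf probes lie on chromosome 6, the brighter at 97971229 to 97971288 and the dimmer at 97968501 to 97968560. Both are assigned to NM_001113198, and which Mitf isoforms they read was not given in the sources used here. Unless said otherwise, a gene is given by its brightest probe.

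The spread of the 6 measured pigment genes over the 8 RNA samples was near that of the median probe. Levels are log2 intensities after background correction, scaled within and between arrays, and each is the mean of the dye-swapped arrays. The range from the lowest to the highest sample was 0.31 for Pmel, 0.38 for Dct, 0.39 for Tyr, 0.42 for Tyrp1, 0.44 for Mlana and 0.48 for Mitf. The largest of these is 1.4-fold. Over all 26348 probes measured, the median range was 0.47, and 50.8% of probes had a range below that of Mitf. Background correction added an offset of 50 to every signal, which narrows the range of dim genes. On the signals as extracted by the authors' software, without the offset, the ranges were 0.71 for Tyr, 0.56 for Tyrp1, 0.45 for Dct, 0.40 for Pmel, 0.81 for Mlana and 0.63 for Mitf, with 1.4 for its dimmer probe. In bulk skin, fewer melanocytes and less RNA per melanocyte cannot be told apart.

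**Figure D1:**
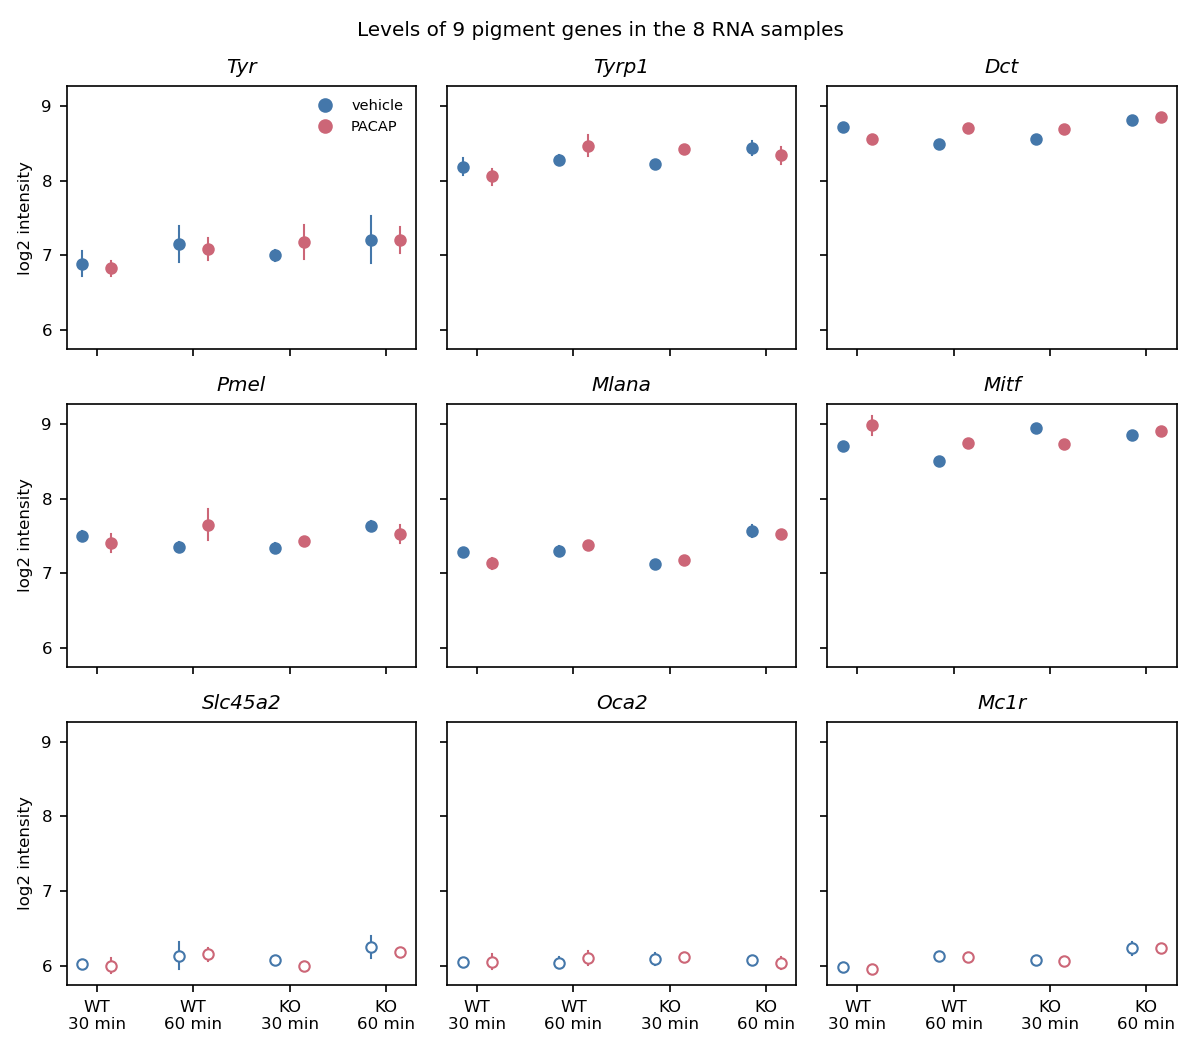
Levels of the 9 pigment genes (log2 intensity) in WT and PAC1R KO skin 30 and 60 min after vehicle (blue) or PACAP (red). Each circle is 1 RNA sample, the line joins its 2 arrays, and open circles were not well above background on both arrays. The 6 measured genes moved by at most 0.48 between samples, and Slc45a2, Oca2 and Mc1r stayed between 5.96 and 6.25.

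For Dct, the enzyme that acts after tyrosinase in eumelanin synthesis, the levels after vehicle were 8.72 (WT, 30 min), 8.49 (WT, 60 min), 8.56 (KO, 30 min) and 8.82 (KO, 60 min). After PACAP they were 8.56, 8.71, 8.70 and 8.86 in the same order. Both PAC1R KO samples at 60 min were the highest, and vehicle-treated WT skin at 60 min was the lowest. Arrays of 1 sample differed by at most 0.11, and the widest gap between neighbours in the order of samples was 0.14, between the 3 lowest samples and the others.

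For Tyrp1, which helps to make brown-black eumelanin, the levels after vehicle were 8.19, 8.28, 8.22 and 8.44 (WT 30, WT 60, KO 30 and KO 60 min). After PACAP they were 8.06, 8.47, 8.43 and 8.34. WT skin 30 min after PACAP was the lowest and WT skin 60 min after PACAP the highest. No gap between neighbours in that order was above 0.13, and arrays of 1 sample differed by up to 0.28.

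On the probe for NM_001317397, Tyr, the rate-limiting enzyme of melanin synthesis, had levels of 6.89, 7.15, 7.00 and 7.21 after vehicle and of 6.83, 7.09, 7.18 and 7.20 after PACAP. The other Tyr probe was not well above background on any array. Both WT samples at 30 min were the lowest. Arrays of 1 sample differed by up to 0.64, more than the whole range over the samples, so the order of the Tyr levels is within the spread between arrays.

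Pmel had levels of 7.5, 7.35, 7.34 and 7.63 after vehicle and of 7.41, 7.65, 7.43 and 7.53 after PACAP. WT skin 60 min after PACAP and PAC1R KO skin 60 min after vehicle were the highest. Arrays of 1 sample differed by up to 0.41, and neighbours in the order by no more than 0.10.

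Mlana had levels of 7.28, 7.30, 7.12 and 7.56 after vehicle and of 7.13, 7.38, 7.18 and 7.52 after PACAP. All 4 samples at 60 min lay above all 4 samples at 30 min, with the PAC1R KO samples at 60 min the highest. The margin between the times was from 7.28 to 7.30, which is less than the difference of up to 0.16 between arrays of 1 sample.

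Mitf had levels of 8.70, 8.50, 8.95 and 8.85 after vehicle and of 8.98, 8.74, 8.73 and 8.91 after PACAP. Vehicle-treated WT skin was the lowest at 60 min and next lowest at 30 min, and WT skin 30 min after PACAP was the highest. Arrays of 1 sample differed by up to 0.26.

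The question of the 4 comparisons was what PACAP changed in skin of each genotype at each time. To be called, a probe needed a mean PACAP over vehicle of at least 2.0-fold or at most 0.5-fold, and each of its arrays had to show that direction with a spot p from Feature Extraction under 0.01. These ratios come from the processed signals and not from the levels above. No pigment gene was called in any comparison. In WT skin at 30 min the rule called 0.254% of all probes as higher and 0.0964% as lower, and at 60 min 0.583% and 0.109%. In PAC1R KO skin it called 0.601% as higher and 0.107% as lower at 30 min, and 0.142% and 0.15% at 60 min. With 1 pair of RNA samples in each comparison there is no test across animals within it.

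The measured pigment genes lay within 0.816-fold and 1.27-fold in all 4 comparisons. In WT skin at 30 min, 5 of 6 were below 0, with a median log2 ratio of -0.20 against -0.05 over all 30351 probes. This median was -0.06 and -0.33 on the arrays with PACAP in Cy5 and in Cy3, and -0.11 with normexp and loess. In WT skin at 60 min, 6 of 6 were above 0, with a median of 0.23 against -0.01, but Tyr was at 0.03 from arrays of opposite sign (0.23 and -0.17) and at -0.06 with normexp and loess. In both WT comparisons and in PAC1R KO skin at 30 min, 5 of the 6 genes had the same sign on both arrays. In PAC1R KO skin, 5 of 6 were above 0 at 30 min (median 0.11 against -0.01 over all probes) and 1 of 6 at 60 min (median -0.04 against 0). In WT skin the sign of the small shift differed between the times on both arrays. In PAC1R KO skin at 60 min the sign depended on the array, with a median of 0.07 where PACAP was in Cy5 and of -0.12 where it was in Cy3, and 1 of the 6 genes had the same sign on both arrays.

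**Figure D2:**
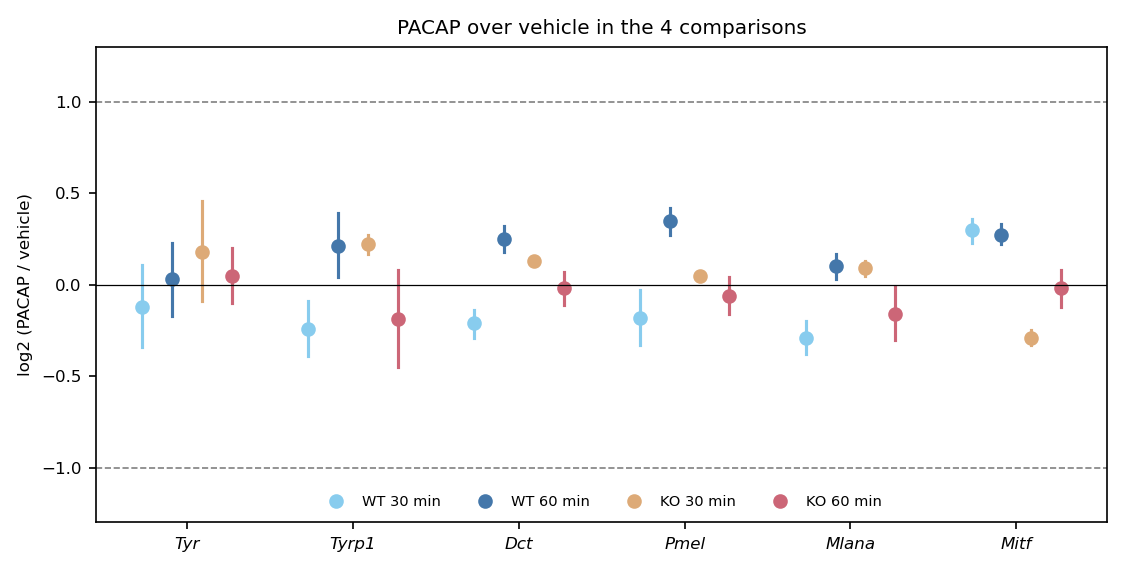
PACAP over vehicle (log2 ratio) for the 6 measured pigment genes in the 4 comparisons. Circles are means of the dye-swapped arrays, lines run between the 2 arrays, and dashed lines mark 2.0-fold and 0.5-fold. All circles lie between -0.29 and 0.35.

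Pmel had the highest mean of the 6 genes, 1.27-fold in WT skin at 60 min, from 1.34-fold and 1.21-fold on its arrays. In the other comparisons it was 0.882-fold (WT, 30 min), 1.03-fold (KO, 30 min) and 0.959-fold (KO, 60 min). Dct was 0.863-fold and 1.19-fold in WT skin and 1.09-fold and 0.986-fold in PAC1R KO skin, at 30 and 60 min. Both genes thus had their lowest ratio in WT skin at 30 min and their highest in WT skin at 60 min. The dimmer Dct probe gave 0.871, 1.21, 1.06 and 1.02-fold, close to the brighter one.

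Tyrp1 was 0.845-fold and 1.16-fold in WT skin and 1.17-fold and 0.878-fold in PAC1R KO skin. Mlana was 0.818-fold and 1.07-fold in WT skin and 1.06-fold and 0.897-fold in PAC1R KO skin. For these the dye-swapped arrays had the same sign, except for Tyrp1 in PAC1R KO skin at 60 min (1.05-fold and 0.732-fold). Tyr lay between 0.922-fold and 1.14-fold, and its arrays had opposite signs in all 4 comparisons.

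At 30 min Mitf had the opposite sign to the other 5 measured genes in both genotypes. At 60 min Mitf shared the sign of all of them in WT skin and of most in PAC1R KO skin. In WT skin it was above 0 at both times, its arrays giving 1.28-fold and 1.18-fold for 30 min and 1.16-fold and 1.25-fold for 60 min. In PAC1R KO skin the arrays gave 0.839-fold and 0.794-fold for 30 min, and 1.06-fold and 0.92-fold for 60 min. The dimmer Mitf probe had a mean of 1.68-fold and 1.45-fold in WT skin and of 0.82-fold and 1.03-fold in PAC1R KO skin. With normexp and loess in place of the processed signals, its log2 ratios shrank to 0.32 and 0.09 in WT skin and to -0.04 and 0 in PAC1R KO skin. Its arrays differed more, being 1.39-fold and 0.485-fold in PAC1R KO skin at 30 min.

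To use the comparisons together, limma fits were made across all probes, with each pair of RNA samples as 1 value. For the mean of the 4 comparisons, the pigment genes had log2 ratios from -0.06 (Mlana, SE 0.10) to 0.06 (Mitf, SE 0.12), and adjusted p = 1 for each in limma. The 95% intervals reached from -0.31 at the lowest (Mlana) to 0.36 at the highest (Mitf). The dimmer Mitf probe had 0.26, with a wider interval of -0.17 to 0.70. In that fit 0% of all probes passed in either direction, with 678 of 30351 at an unadjusted p under 0.05. The levels, fitted by injection, gave differences of PACAP from vehicle between -0.01 (Mlana) and 0.09 (Mitf), again with 0% of probes passing and adjusted p = 1 for each pigment gene in limma. That fit had 457 probes at an unadjusted p under 0.05.

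The effect of PACAP was then compared between genotypes, which asks whether it needed PAC1R. In PAC1R KO minus WT skin the difference of log2 ratios was -0.44 for Mitf (SE 0.20, 95% interval -0.94 to 0.06), from a mean of 0.28 in WT skin and of -0.16 in PAC1R KO skin. The dimmer Mitf probe gave -0.76 (SE 0.22, 95% interval -1.3 to -0.22), a size that rests on the processed signals. The adjusted p in limma was 0.84 for both probes, so neither passed the threshold of 0.05 over all probes. The other 5 genes differed by -0.09 (Pmel) to 0.16 (Tyr), and their adjusted p in limma was between 0.85 and 0.98. Their intervals were wide, from -0.60 to 0.66 for Tyrp1. In this fit 0% of probes passed in either direction, and 972 of 30351 had an unadjusted p under 0.05.

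MITF is also a regulator of mast cells and osteoclasts, and a long form of it is made in many tissues, so lists of marker genes of other cell types were read beside it. Skeletal muscle genes moved with Mitf at 30 min. Their median log2 ratio was 0.75 in WT skin (8 of 8 above 0) and -0.70 in PAC1R KO skin (1 of 8 above 0), and -0.04 and -0.03 at 60 min. Their summed signal ranged from 82200 to 149000 in the WT samples and from 72100 to 120000 in the PAC1R KO samples, and all 8 genes were measured. Of these genes Myh4, a fast myosin, was called higher in WT skin at 30 min, and Myh4 and Acta1, skeletal actin, were called lower in PAC1R KO skin at 30 min. Of all probes, 0.254% were called higher in WT skin and 0.107% lower in PAC1R KO skin at that time. The mast cell list, of which 7 of 8 genes were measured and Ms4a2 was not, had medians of 0.32 and 0.44 at 30 min in WT and PAC1R KO skin and of -0.09 and -0.06 at 60 min. Its summed signal ranged from 9220 to 11600 in the WT samples and from 10900 to 13100 in the PAC1R KO samples. The osteoclast list had medians between -0.03 and 0.22 over the comparisons. Genes of the resting follicle and bulge moved with Mitf at 30 min as well, with 8 of 8 above 0 in WT skin (median 0.30) and 0 of 8 in PAC1R KO skin (median -0.33). Epidermal genes had medians of 0.14 and -0.72 at that time, with 6 of 8 above 0 in WT skin and 0 of 8 in PAC1R KO skin, where the keratins Krt1 (0.455-fold) and Krt10 (0.365-fold) were called lower. Eccrine gland genes had medians of -0.03 and -0.61, with 4 of 8 and 0 of 8 above 0. The part of other cell types in the Mitf values was not tested.

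Levels of the pigment genes were also compared between genotypes over the 4 samples of each. In PAC1R KO minus WT skin, the differences were 0.16 for Tyr (SE 0.07), 0.13 for Mitf (SE 0.12), 0.12 for Dct (SE 0.10), 0.11 for Tyrp1 (SE 0.10), 0.07 for Mlana (SE 0.08) and 0.01 for Pmel (SE 0.09). None passed, and the lowest adjusted p in limma was 0.22, for Tyr. The brightest probes of all 6 were above 0, with a median over all probes of 0.01, but the dimmer Mitf probe was at -0.11 (SE 0.11). Of all probes, 1.65% passed as higher and 1.76% as lower.

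Between the times, Mlana was higher by 0.26 at 60 min (SE 0.08, 95% interval 0.07 to 0.46, adjusted p = 0.083 in limma), with means of 7.44 and 7.18. Without either PAC1R KO pair this difference was 0.14, without either WT pair 0.39, and on Feature Extraction signals 0.42. Tyr was higher by 0.19 (SE 0.07, adjusted p = 0.14 in limma). Tyrp1 differed by 0.16, Pmel by 0.12 and Dct by 0.08, and Mitf by -0.09. None of the 6 passed the threshold of 0.05 in this fit, and the exceptions among the alternatives, for Tyr and Mlana, are given below. Of all probes, 6.68% passed as higher at 60 min and 4.09% as lower. Each time was represented by 2 hybridised pairs, and the count of probes passing fell to 0 when the WT pair of either time or the PAC1R KO pair at 60 min was left out.

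**Figure D3:**
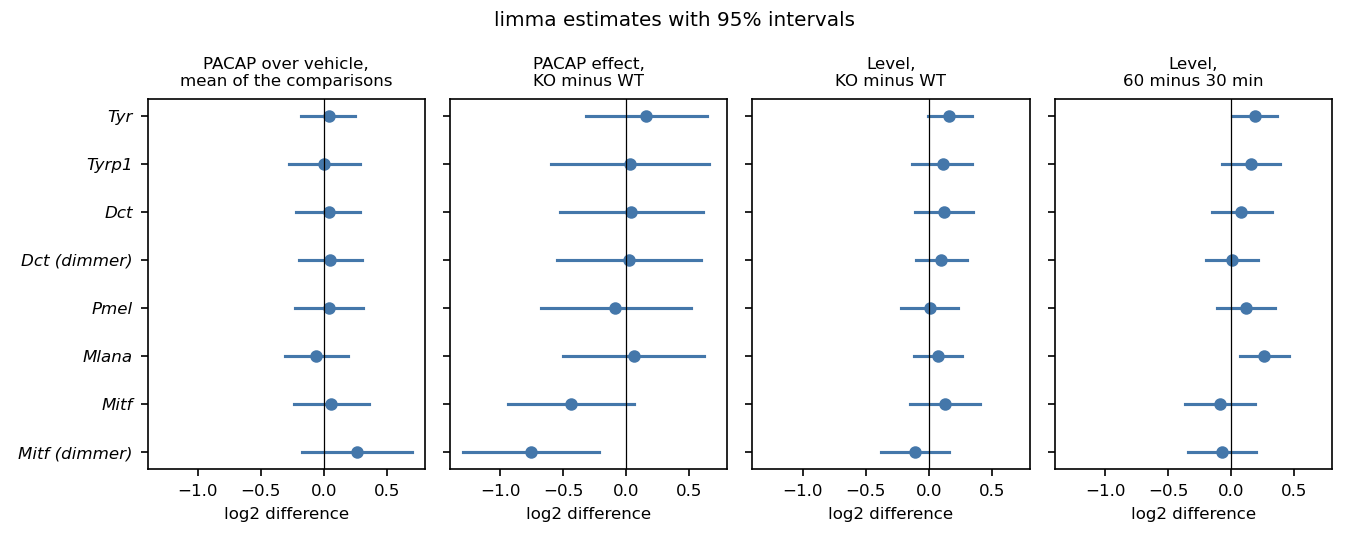
limma estimates (log2 difference) with 95% intervals for the 8 measured probes of the 6 pigment genes, for the mean PACAP effect, the PACAP effect in PAC1R KO minus WT skin, and the levels of PAC1R KO minus WT skin and of 60 minus 30 min. None passed an adjusted p of 0.05. The Mitf estimates of -0.44 and -0.76 in the second panel lie farthest from 0.

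Hair genes were set beside the pigment genes, since follicle melanocytes deliver pigment to the cells that build the hair shaft. The hair shaft list held hair keratins, of which 11 of 12 were on the array, and the inner root sheath list held 9 keratins and other genes of the sheath that guides the growing hair. Over the same 8 samples the hair shaft genes had a median range of 2.3 (0.74 to 3.99) and the inner root sheath genes of 2.74 (0.80 to 3.72), while no pigment gene exceeded 0.48. That limit depends on the offset, since without it Mlana ranged over 0.81 and the dimmer Mitf probe over 1.4, and ranges of the hair genes were not computed on those signals. PACAP over vehicle was called higher for 2, 9, 7 and 0 of the 11 hair shaft genes (WT 30, WT 60, KO 30 and KO 60 min) and for 2, 7, 5 and 0 of the 9 inner root sheath genes, where 0.254%, 0.583%, 0.601% and 0.142% of all probes were called higher. Krt84 was the one hair shaft gene called lower, in WT skin at 30 min (0.408-fold), where 0.0964% of all probes were called lower. The lists were chosen with these changes already known, so the counts are a description. They cover genes of the hair shaft and inner root sheath only. A list of hair matrix genes and growing follicle regulators is not reported here, so the counts do not stand for the growing follicle as a whole.

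The hair keratin Krt35 had the widest range of the hair shaft list, 3.99 against a median of 2.3. Its levels were 8.60, 9.62, 8.06 and 12.05 after vehicle and 9.63, 11.46, 9.95 and 11.41 after PACAP, in the order WT 30, WT 60, KO 30 and KO 60 min. The inner root sheath keratin Krt71 had levels of 11, 10.54, 10.15 and 13.59 after vehicle and 11.92, 13.07, 11.42 and 13.12 after PACAP. PAC1R KO skin 60 min after vehicle was the highest sample for both and PAC1R KO skin 30 min after vehicle the lowest. Neither keratin passed a level fit, with adjusted p = 0.063 for Krt35 and 0.21 for Krt71 between the times in limma.

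The median log2 ratio of the hair shaft list was 0.24, 1.92, 1.36 and -0.50 in the 4 comparisons, beside -0.20, 0.23, 0.11 and -0.04 for the pigment genes. The inner root sheath list had medians of 0.44, 2.4, 1.2 and -0.56. Both lists had the same sign as the pigment genes at 60 min in WT skin and at 30 min in PAC1R KO skin, and the opposite sign in WT skin at 30 min. In PAC1R KO skin at 60 min the pigment median had no settled sign, being 0.07 on the array with PACAP in Cy5.

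The 6 measured pigment genes were averaged after each was centred on its own mean over the samples. This mean was -0.06 and -0.11 in WT skin at 30 min (vehicle and PACAP), -0.09 and 0.07 in WT skin at 60 min, -0.07 and 0 in PAC1R KO skin at 30 min and 0.15 and 0.12 in PAC1R KO skin at 60 min. The hair shaft list, centred in the same way, had medians of -0.55 and -0.25, -0.48 and 0.76, -1.18 and -0.14, and 1.12 and 0.75. The 3 highest samples of both were WT skin 60 min after PACAP and PAC1R KO skin 60 min after either injection. In those samples the hair shaft genes lay between 0.75 and 1.12 and the pigment genes between 0.07 and 0.15. Mitf did not share this order, being at 8.74 in WT skin 60 min after PACAP, below its mean of 8.80, and highest in WT skin 30 min after PACAP (8.98) and PAC1R KO skin 30 min after vehicle (8.95).

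**Figure D4:**
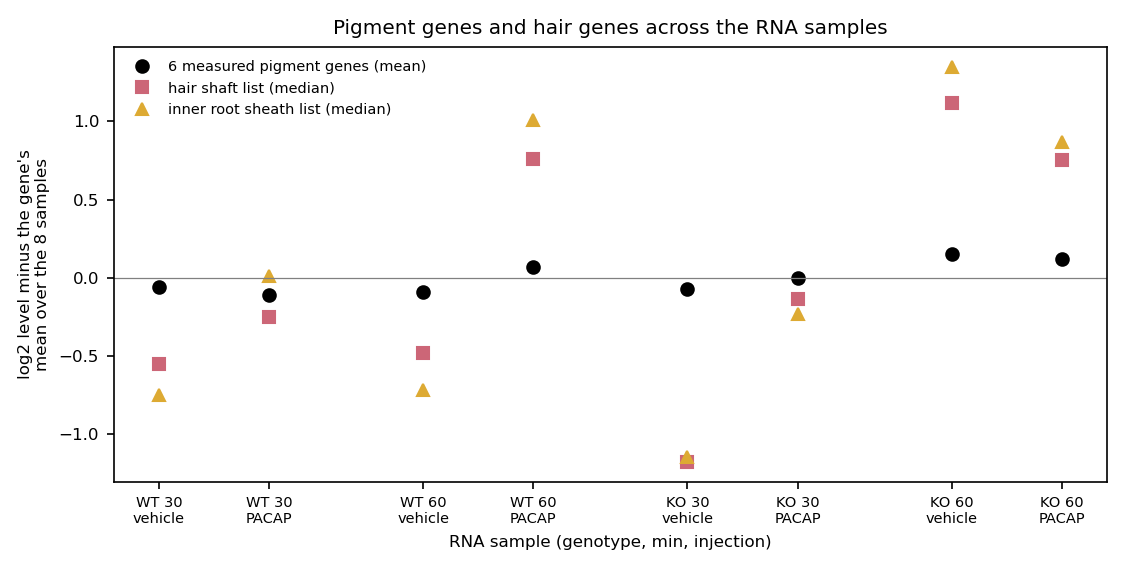
Centred log2 levels of the 6 measured pigment genes (mean, black), the hair shaft list (median, red) and the inner root sheath list (median, yellow) in the 8 RNA samples, 1 point each. The hair lists run from -1.18 to 1.35, and the pigment genes from -0.11 to 0.15.

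Across the 8 samples, the genes were also ranked by their Pearson r with the mean centred level of the 6 measured pigment genes, as a description over samples that share arrays and scaling. The members themselves had r = 0.891 (Dct), 0.87 (Mlana), 0.823 (Pmel), 0.778 (Tyrp1) and 0.715 (Tyr), each being part of the mean, and r = 0.164 for Mitf. Between pairs of the other 5 members, r ran from 0.329 (Tyr and Pmel) and 0.469 (Tyr and Dct) to 0.769 (Pmel and Mlana) and 0.847 (Tyr and Tyrp1). Between Mitf and each of them it lay between -0.301 and 0.269. Of 20 hair genes, 16 had r above 0.7, led by Krt86 (0.948) and Krt26 (0.945), against 12.2% of 20571 other genes. The exceptions were Krt84 (0.547), Krt72 (0.0592), Krt85 (-0.114) and Gata3 (-0.669). The 10 genes with the highest r, between 0.966 and 0.972, were Olfr1347, the probe A_55_P2083198, Gm9789, Gm34396, Aadacl3, Selenov, Ccin, Krtap9-5, Gm9960 and Tecpr2. They include a keratin-associated protein of hair, Krtap9-5, and no gene of the pigment lists.

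Other genes of melanosome formation and transport were read from a list of 20, of which 18 were measured and Gpr143 and Mlph were not. None was called in any of the 4 comparisons, and none passed the fits of the PACAP effect, where 0% of all probes passed. The rule for calls took at most 0.601% of all probes as higher and 0.15% as lower. The median log2 ratios of the list were 0.05 and 0 in WT skin at 30 and 60 min and -0.23 and 0.06 in PAC1R KO skin. Between the times, 1 of 18 rose and 1 fell, against 6.68% and 4.09% of all probes, so these counts are near the background. Trpm1, a cation channel of melanocytes, had levels of 6.44, 6.45, 6.37 and 6.38 in the samples at 30 min (WT and PAC1R KO vehicle, then WT and PAC1R KO PACAP). At 60 min its levels were 6.96, 7.22, 6.93 and 7.17. The times did not overlap, and the rise was 0.66 (SE 0.07, adjusted p = 0.013 in limma). Ap3d1, a subunit of the adaptor that sorts cargo to melanosomes and lysosomes in many cell types, fell by 0.40 (adjusted p = 0.043). Between genotypes, 1 of 18 passed, where 1.65% of all probes passed as higher and 1.76% as lower. It was the melanosome and endosome channel Tpcn2, higher by 0.39 in PAC1R KO skin (adjusted p = 0.044 in limma), and a single gene is no result about the list. The call of Trpm1 was kept without the PAC1R KO pair at 30 min (0.54, adjusted p = 0.011) and lost without any other pair (adjusted p from 0.068 to 0.13 in limma), while the difference was 0.54 without the PAC1R KO pair at 60 min and 0.78 without either WT pair.

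Among 8 lineage regulators and receptors, 7 were measured and Pax3 was not. None was called in a comparison, where at most 0.601% of all probes were called higher and 0.15% lower. None passed the fits of the PACAP effect, where 0% of all probes passed. The median log2 ratios of the list at 30 min were 0.24 in WT skin and -0.32 in PAC1R KO skin. Of the 7 genes, 1 passed as lower in PAC1R KO skin and 2 as lower at 60 min, against 1.76% and 4.09% of all probes. So few genes are no result about the list. Tfap2a, a transcription factor of neural crest and epidermis, was lower by 0.61 in PAC1R KO skin (adjusted p = 0.044) and by 0.47 at 60 min (adjusted p = 0.042 in limma). Without either WT pair its time difference was -0.29, and without either PAC1R KO pair -0.66. Snai2, a regulator of neural crest cells and fibroblasts, was lower by 0.64 at 60 min (adjusted p = 0.024 in limma). Sox10, which marks both melanocytes and Schwann cells, was at 8.72, 8.38, 8.30 and 8.11 after vehicle and 8.90, 8.35, 8.09 and 8.13 after PACAP. Its 4 WT samples lay above its 4 PAC1R KO samples, and the difference was -0.43 (adjusted p = 0.077 in limma). Kit, the receptor of melanoblasts and mast cells, differed by -0.43 between genotypes (adjusted p = 0.13 in limma).

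Of 10 signals that skin cells send to melanocytes or that act on their receptors, 9 were on the array and 6 were measured, without Edn3, Fgf2 and Hgf. None was called in a comparison, where at most 0.601% of all probes were called higher and 0.15% lower. Of the 6 genes, 1 passed as higher and 1 as lower at 60 min, against 6.68% and 4.09% of all probes. Kitl, the ligand of Kit, was lower by 0.41 at 60 min (adjusted p = 0.036 in limma). Mc5r, a melanocortin receptor best known from sebaceous glands, was higher by 1.01 at 60 min (adjusted p = 0.046 in limma), and by 0.63 without either PAC1R KO pair or 1.39 without either WT pair. Pomc, the precursor of melanocyte-stimulating hormone, ranged over 0.31 and Edn1 over 0.35, both within the range of the pigment genes. The other calls between times or genotypes in the melanosome, lineage and signal lists were likewise lost without the WT pair of either time or the PAC1R KO pair at 60 min.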

How the data were processed

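The authors hybridised amplified RNA of palm skin to 8 Agilent 2-colour arrays and read the scans with Feature Extraction, for which the file headers give version 12.0.3.1 and the submitters' processing notes 11.0.1.1. Per spot, the deposited log10 ratio (red over green) was background-corrected and LOWESS-normalized by the authors' software, which set it to 0 in between 13.4% and 25.0% of spots. The deposited p-value of each spot comes from the error model of that software and refers to 1 array. The deposited intensity values are processed signals, mean signals and local backgrounds of each channel. The authors' series matrix holds the log10 ratio of the processed signals and was used as an alternative.

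Control spots and between 198 and 342 outlier spots per array were left out, and 0 spots were saturated. Spots of a probe were averaged, and log ratios were turned to log2 PACAP over vehicle and averaged over the dye-swapped arrays. For levels, mean signals were corrected by normexp (offset 50), normalized by loess within and by Aquantile between arrays, separated into channels and averaged for each RNA sample. Models were fitted in R 4.3.3 by lmFit and eBayes of limma 3.58.1, with p adjusted by Benjamini-Hochberg and a threshold of 0.05. Ratios were fitted over 4 comparisons on 30351 probes well above background in a channel on every array. Levels were fitted over 8 RNA samples on 26348 probes, with genotype, time and injection as terms and the hybridised pair as a random block. Such p-values measure the spread between these samples only.

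Samples were grouped by the labels. Same-numbered arrays share a dye orientation, and their deviations correlated (r from 0.703 to 0.847), so both orientations were averaged. The genes named are the 9 members, up to 4 genes of each list with their values and the 10 genes most like the members. Genes of a list that were not measured are named beyond this rule. A further marker list is not reported here. Members, lists and these rules were chosen with earlier results of these data known. Genes outside the members were picked within their lists after their values were seen. Promoters were read from a RefSeq table with Python 3.11.15 and pandas 2.3.3. The fits were tested on simulated data with shifts larger than any estimate for a pigment gene. That test does not bear on changes of the size seen here. Alternatives changed the thresholds, normalization, filters, centring, arrays, probes per gene, blocks and samples. Genome annotation of mm9 was not used here.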

Additional observations from a re-analysis of the deposited data

Results flagged for a closer look

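The mean log2 ratio of Mitf had opposite signs in the genotypes, with no call in any of them. PACAP over vehicle was above 0 in WT skin at both times (log2 ratios 0.30 and 0.27) and below 0 in PAC1R KO skin at both times (-0.29 and -0.02), a difference of -0.44 (adjusted p = 0.84 in limma over all probes). The value of -0.02 is the mean of arrays with opposite signs (0.08 and -0.12), and it was 0.06 with normexp and loess, so at 60 min the direction in PAC1R KO skin was not settled. The difference was -0.34 with normexp and loess, and between -0.58 and -0.30 when 1 hybridised pair was left out. The other alternatives changed filters, centring, blocks or covariates. They left it at -0.44 and so add nothing about its sign.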

How the results depend on the processing

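The measured pigment genes passed no fit under any alternative, except Tyr between times without the PAC1R KO pair at 30 min (0.26, adjusted p = 0.017 in limma) and Mlana between times with the replicate number (dye orientation) as a replicate block over 16 channels (0.26, adjusted p = 0.016). That fit took 16 channels as values and the RNA sample, in place of the pair, as random block. It gave 4213 probes between genotypes, 5704 between times and 2 between injections, against 897, 2836 and 0 in the main fits. Leaving out the block for the pair alone gave 2605 between genotypes and 4911 between times. The part of each change was not tested. A replicate block with 8 arrays as values gave 0 probes for both fits of the PACAP ratio. Neither replicate block changed any other call of a pigment gene. No pigment gene was called in a comparison, except 1 on replicate 2 alone (PACAP in Cy3), where the dimmer Mitf probe was at 0.485-fold in PAC1R KO skin at 30 min.

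The count of probes called, 138, 273, 279 and 115 (WT 30, WT 60, KO 30 and KO 60 min), was 612, 837, 881 and 701 on replicate 1 alone and 870, 679, 1197 and 446 on replicate 2 alone. With normexp and loess it was 57, 170, 164 and 72. Without the p filter it was 222 in WT and 434 in PAC1R KO skin at 30 min, and at 1.5-fold 549 and 1069 at 30 min and 225 in PAC1R KO skin at 60 min. The median of the pigment genes, in the same order of comparisons, was -0.06, 0.22, 0.12 and 0.07 on replicate 1 alone and -0.33, 0.16, 0.06 and -0.12 on replicate 2 alone, so its sign at 60 min in PAC1R KO skin depended on the array. The count of probes passing between genotypes was 2605 without the block for the pair, 2600 on Feature Extraction signals, 2305 without a filter on dim probes, 345 with the strict filter, and 0 in vehicle or PACAP samples alone. Between times it was 4911 without the block, 971 with the strict filter, and 0 in vehicle or PACAP samples alone. With time as a covariate 17 probes passed for the PACAP effect in PAC1R KO minus WT skin.

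Leaving out each hybridised pair in turn gave between 0 and 2773 probes between genotypes, where 0 was reached without the WT pair of either time or the PAC1R KO pair at 60 min. It gave 0 to 10700 between times, with 0 for the same pairs and the most without the PAC1R KO pair at 30 min. It gave 0 to 170 probes for PAC1R KO minus WT ratios (170 without WT at 30 min and 83 without WT at 60 min) and 0 to 1 for the mean ratio. Many values of pigment genes near 0 changed sign in these fits. For the mean ratio they ran from -0.01 to 0.09 (Tyr), -0.07 to 0.08 (Tyrp1), -0.03 to 0.12 (Dct), -0.06 to 0.11 (Pmel), -0.12 to 0.01 (Mlana) and -0.01 to 0.18 (Mitf). For PAC1R KO minus WT ratios they ran from 0.09 to 0.23 (Tyr), -0.20 to 0.26 (Tyrp1), -0.20 to 0.27 (Dct), -0.35 to 0.18 (Pmel), -0.13 to 0.26 (Mlana) and -0.58 to -0.30 (Mitf). For levels between genotypes they ran from 0.09 to 0.23 (Tyr), 0.01 to 0.20 (Tyrp1), 0 to 0.25 (Dct), -0.07 to 0.08 (Pmel), -0.06 to 0.20 (Mlana) and 0 to 0.26 (Mitf). For levels between times they ran from -0.04 to 0.21 (Dct), -0.22 to 0.04 (Mitf), 0.12 to 0.26 (Tyr), 0.07 to 0.25 (Tyrp1), 0.05 to 0.20 (Pmel) and 0.14 to 0.39 (Mlana). For levels by injection they ran from -0.05 to 0.04 (Tyr), -0.02 to 0.10 (Tyrp1), 0.01 to 0.13 (Dct), -0.04 to 0.10 (Pmel), -0.04 to 0.03 (Mlana) and 0.03 to 0.19 (Mitf). Between genotypes Pmel was also -0.04 on Feature Extraction signals, and in PACAP samples alone Pmel was -0.05 and Mitf -0.04. The cause of these differences was not tested. Signal over background limits Slc45a2, Oca2 and Mc1r, which were well above it in 1 dye only.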
